A study of Homo sapiens with 7 samples.

Results

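Nucleases and an RNA editor that keep the cell's own DNA and RNA below the level that its sensors detect are described here in A549 cells sorted as senescent. The set was chosen by name and holds 7 genes: TREX1, SAMHD1, the RNase H2 subunits RNASEH2A, RNASEH2B and RNASEH2C, ADAR and DNASE2. The table holds 6 of them among 14535 genes. TREX1 is not analysed here. All 6 passed the filter on low counts, among 11230 genes tested.

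A549 is an epithelial line from a human lung adenocarcinoma. The 4 stretch libraries, numbered 4 to 7, came from A549 cells exposed during 24 h to repeated elongation of 15%, applied 15 times per min. The 3 doxorubicin libraries, numbered 1 to 3, came from A549 cells given 100 nM of this topoisomerase II poison, likewise over 24 h. In both groups cells were stained for β-galactosidase, a marker of senescence, after 6 days, and RNA was taken from sorted positive cells. Both groups are therefore treated, and a gene lower in stretch is the same as a gene higher after doxorubicin. Whether replicates of a group were separate cultures is not given in the labels. The p-values below therefore set the group difference only against the spread between these libraries within groups, and that spread may be technical.

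Cells carry sensors that start a type I interferon response when DNA lies in the cytosol or when long double-stranded RNA accumulates. A set of enzymes removes or alters such self nucleic acids, and inherited loss of several of them causes Aicardi-Goutières syndrome, an interferon-driven disease of infancy. SAMHD1 hydrolyses deoxynucleoside triphosphates and helps process stalled replication forks, RNase H2 cuts RNA out of DNA, ADAR deaminates adenosine in double-stranded RNA, and DNASE2 digests DNA in the lysosome. Some of these genes, ADAR and SAMHD1 among them, are themselves known to respond to interferon in many cell types.

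Of the 6 genes, SAMHD1 was lower in stretch and ADAR had the next lowest p, on the same side. RNASEH2A and RNASEH2B lay on the other side, without passing the test, and RNASEH2C and DNASE2 had overlapping groups and small differences. By edgeR, SAMHD1 was the only member whose adjusted p was below 0.05, which is 1 of 6, against 2.32% of all genes tested in either direction, 1.97% lower and 0.356% higher in stretch. An unadjusted p under 0.05 was reached by SAMHD1, ADAR and RNASEH2B, which is 3 of 6, against 23.2% of all genes. Group ranges did not overlap for 3 members, against 21.4% of all genes tested. SAMHD1 and ADAR were those with stretch below (9.88% of all genes), and RNASEH2B the one with stretch above (11.5%). The median log2 fold change of the 6 members, stretch minus doxorubicin, was -0.10, beside 0.02 over all genes tested.

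The stretches upstream of the starts of SAMHD1, ADAR and RNASEH2A are shown because these genes lay farthest apart in the comparison, that of DNASE2 because it holds the one match to an interferon element among the members, and that of ISG15, an interferon-stimulated gene, for contrast. Each is the 250 bases before a RefSeq transcript start on GRCh38.p14, 5′ to 3′ on the gene's strand. ADAR is shown for a pair of its 3 annotated starts. Capitals mark matches on either strand to the core of the interferon-stimulated response element (GAAANNGAA), to the STAT-binding GAS element (TTCNNNGAA) or to the CCAAT box (CCAAT).
SAMHD1, chr20:36951709-36951958, minus strand: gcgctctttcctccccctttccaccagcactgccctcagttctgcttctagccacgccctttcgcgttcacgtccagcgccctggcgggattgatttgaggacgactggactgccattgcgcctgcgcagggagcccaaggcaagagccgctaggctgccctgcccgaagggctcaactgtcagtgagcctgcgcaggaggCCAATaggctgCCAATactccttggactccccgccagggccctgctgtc
ADAR, upstream start, chr1:154627972-154628221, minus strand: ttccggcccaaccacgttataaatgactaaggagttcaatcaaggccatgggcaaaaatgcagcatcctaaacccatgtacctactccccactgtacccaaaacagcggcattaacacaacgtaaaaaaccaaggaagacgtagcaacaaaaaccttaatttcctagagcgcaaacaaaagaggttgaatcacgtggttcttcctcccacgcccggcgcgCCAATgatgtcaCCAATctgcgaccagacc
ADAR, downstream start, chr1:154608798-154609047, minus strand: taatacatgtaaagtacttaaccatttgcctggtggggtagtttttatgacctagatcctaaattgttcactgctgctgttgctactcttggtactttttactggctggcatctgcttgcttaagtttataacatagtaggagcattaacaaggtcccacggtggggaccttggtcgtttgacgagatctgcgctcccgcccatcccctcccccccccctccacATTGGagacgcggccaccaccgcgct
RNASEH2A, chr19:12806334-12806583, plus strand: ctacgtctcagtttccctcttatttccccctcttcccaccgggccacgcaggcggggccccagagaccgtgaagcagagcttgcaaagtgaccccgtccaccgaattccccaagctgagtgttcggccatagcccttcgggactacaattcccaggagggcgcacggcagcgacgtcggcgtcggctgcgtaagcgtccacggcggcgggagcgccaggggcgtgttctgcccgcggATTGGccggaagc
DNASE2, chr19:12881450-12881699, minus strand: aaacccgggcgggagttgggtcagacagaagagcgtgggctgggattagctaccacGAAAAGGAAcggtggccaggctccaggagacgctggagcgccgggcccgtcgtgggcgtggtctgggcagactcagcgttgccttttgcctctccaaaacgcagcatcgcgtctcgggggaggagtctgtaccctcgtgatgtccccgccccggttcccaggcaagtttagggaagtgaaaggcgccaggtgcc
ISG15, chr1:1013247-1013496, plus strand: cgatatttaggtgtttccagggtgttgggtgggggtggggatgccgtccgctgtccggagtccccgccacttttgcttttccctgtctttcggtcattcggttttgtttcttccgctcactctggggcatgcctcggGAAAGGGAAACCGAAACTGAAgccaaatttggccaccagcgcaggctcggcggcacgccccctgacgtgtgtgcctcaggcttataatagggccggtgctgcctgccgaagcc

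The capitals in SAMHD1, ADAR and RNASEH2A are all CCAAT boxes, the capitals in DNASE2 are a single match to the response element core, and those in ISG15 are 3 such matches, which overlap one another. All 7 genes of the set have at least 1 window in the table, 10 windows in all. The response element core was held by 1 of the 10, that of DNASE2, where it ran from 194 to 186 bases before the start, and the GAS element by none, while 6 of 10, from 4 genes, held a CCAAT box. Windows of the same gene can overlap, and those of RNASEH2B hold a CCAAT box in common, so the windows are not independent. Among all 35116 windows of the same length, 6.88% held the response element core, 6.57% the GAS element and 32.01% a CCAAT box. Of the 22 interferon-stimulated genes listed for context, 17 have windows, 25 in all. The core was held by 15 of these 25 windows, from 12 of the 17 genes. A match is a run of letters, and its absence here says only that these letters are not in this window.

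Total counts ran from 5636494 to 7419798 in the stretch libraries and from 2611766 to 4644650 in the doxorubicin libraries. A count of 3, taken as the limit of detection, corresponded to 0.321 to 0.401 CPM (counts divided by the scaled library size) in stretch and 0.567 to 2.59 CPM in doxorubicin, the highest in doxorubicin library 2. The gene EIF4A2 took 1.67% to 2.87% of counts in stretch and 10.8% to 30.6% in doxorubicin. Across genes, log2 CPM of stretch library 4 correlated with the other stretch libraries at 0.939 to 0.946. Those correlated with one another at 0.973 to 0.978. Doxorubicin library 2 stood farthest apart, at 0.724 to 0.769 with stretch. Doxorubicin library 1 was at 0.847 to 0.879 with stretch and at 0.884 with doxorubicin library 2. Doxorubicin library 3 correlated with the stretch libraries at 0.915 to 0.941, above its 0.882 and 0.754 with doxorubicin libraries 1 and 2. Each member is therefore also given with doxorubicin library 3 alone against stretch and without it. All 5 epithelial markers (KRT8, KRT18, KRT19, EPCAM and CDH1) were present, with a summed level of 950 to 1270 CPM in stretch and 1932 to 3475 CPM in doxorubicin. The summed level of the 2 immune markers listed, CD14 and LYZ, was 38.7 to 41.0 CPM in stretch and 26.8 to 53.5 CPM in doxorubicin. The 2 fibroblast markers COL1A1 and COL3A1 summed to 4.65 to 8.18 CPM in stretch and 7.37 to 14.7 CPM in doxorubicin, and the endothelial marker CDH5 to at most 0.963 CPM in stretch and 0 in doxorubicin. PTPRC, CD3E, PDGFRB, PECAM1 and VWF were not analysed here. The part of depth, EIF4A2 and these markers in the results was not tested, except that EIF4A2 was left out in 1 alternative.

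**Figure D1:**
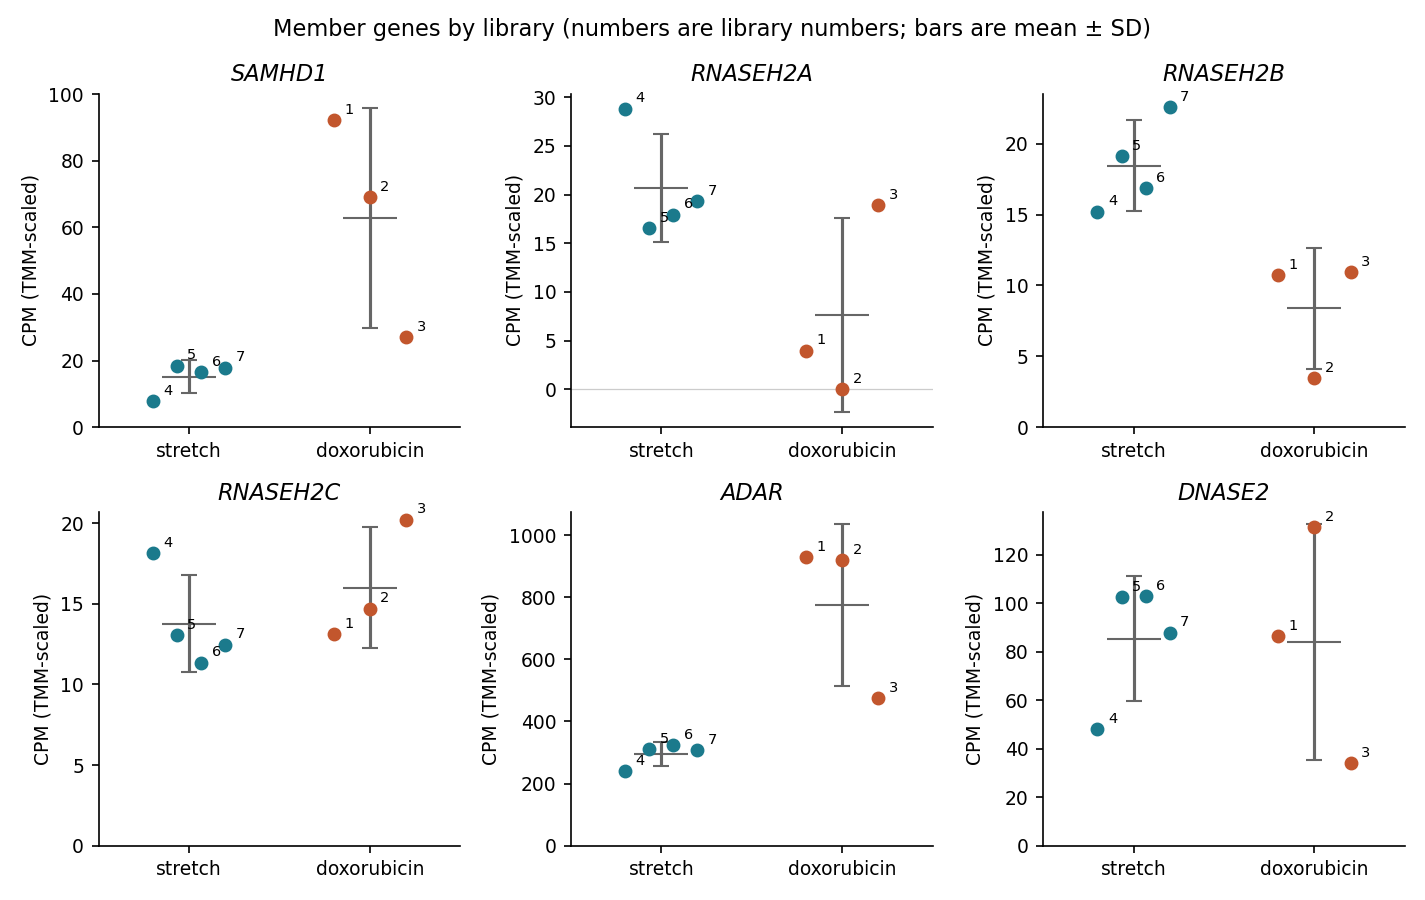
Level of each of the 6 genes (CPM with TMM-scaled library sizes, y axis) in the 4 stretch and 3 doxorubicin libraries (points, with library numbers), with the group mean ± SD. SAMHD1 and ADAR are lower in every stretch library than in any doxorubicin library, RNASEH2B is higher in every stretch library, and the groups overlap for RNASEH2A, RNASEH2C and DNASE2.

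SAMHD1 (chromosome 20, 36889773 to 36951901, minus strand, coordinates from GENCODE release 29 on GRCh38) limits the deoxynucleotide supply of cells, which starves reverse transcription, and its loss lets DNA fragments leak from replication forks into the cytosol. It stood at 7.88, 18.5, 16.4 and 17.9 CPM in stretch libraries 4, 5, 6 and 7, and at 92.1, 69.2 and 27.0 CPM in doxorubicin libraries 1, 2 and 3. All 4 stretch libraries lay below the lowest doxorubicin library, which was library 3. The groups averaged 15.2 ± 4.94 CPM in stretch (SD, n = 4) and 62.8 ± 33.0 CPM in doxorubicin (SD, n = 3). The log2 fold change was -2.04 (SE 0.44), a level 4.10-fold higher after doxorubicin, with adjusted p = 0.0431 by the quasi-likelihood test of edgeR (Benjamini-Hochberg, all genes tested). In bulk RNA, fewer cells with a transcript and less of it per cell cannot be told apart.

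The size of the SAMHD1 difference depended on which doxorubicin libraries were used. Relative to the stretch mean, doxorubicin libraries 1, 2 and 3 were at 6.07, 4.56 and 1.78 times its level. Set against doxorubicin library 3 by itself, stretch had a log2 fold change of -0.81 (adjusted p = 0.351 by edgeR), and without library 3 it was -2.38 (adjusted p = 0.000751 by edgeR). Without doxorubicin libraries 1 or 2, it was -1.62 and -1.95, with adjusted p = 0.194 and 0.0542 by edgeR, and leaving out any 1 stretch library also raised its adjusted p above 0.05. SAMHD1 was lower in stretch under all 17 alternatives, and passed in 6. TLDC2, on the opposite strand, shares 10.3% of the exonic bases of SAMHD1, and whether counting used strand is not given in the sources used here.

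ADAR (chromosome 1, 154582057 to 154628013, minus strand) turns adenosine into inosine in double-stranded RNA, which keeps transcripts of inverted repeats from being read as viral by the sensor MDA5 (IFIH1). The gene makes a longer form from an interferon-inducible start and a shorter, constitutive one, and the counts per gene do not separate them. Its level was 239, 311, 323 and 309 CPM in stretch libraries 4, 5, 6 and 7, and 930, 920 and 475 CPM in doxorubicin libraries 1, 2 and 3. Again all stretch libraries lay below all doxorubicin libraries, and doxorubicin library 3 was nearest to stretch. ADAR averaged 295 ± 38.2 CPM in stretch (SD, n = 4) and 775 ± 260 CPM in doxorubicin (SD, n = 3). The log2 fold change of -1.39 (SE 0.32) had an adjusted p of 0.0520 by edgeR, just outside the threshold.

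ADAR rested on 1064 to 2988 counts in every library, so that counting error was small beside the spread between libraries. Against doxorubicin library 3 by itself it was -0.67 (adjusted p = 0.244 by edgeR), and without that library -1.62 (adjusted p = 0.00124 by edgeR). DESeq2 called ADAR at -1.37 with an adjusted p of 0.00141. It was on the doxorubicin side under all 17 alternatives and passed in 3 of them, with adjusted p from 1.25e-05 to 0.257. The profiles of ADAR and SAMHD1, each centred on its own mean, differed by a root mean square of 0.44 on the log2 CPM scale over the 7 libraries, the smallest difference among the 15 pairs of members.

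RNase H2 is a trimer in which RNASEH2A holds the catalytic site and RNASEH2B and RNASEH2C are the auxiliary subunits that the enzyme needs for stability. It removes single ribonucleotides left in DNA by replicative polymerases, and RNA from RNA-DNA hybrids. None of the 3 subunits passed the test, and they did not lie on one side. RNASEH2A (chromosome 19, 12806556 to 12815201, plus strand) stood at 28.8, 16.6, 17.9 and 19.4 CPM in stretch libraries 4, 5, 6 and 7, and at 3.97, 0 and 18.9 CPM in doxorubicin libraries 1, 2 and 3. Doxorubicin library 3 lay within the stretch range, whereas libraries 1 and 2 lay far below it. These low values came from few reads: RNASEH2A had 10 counts in doxorubicin library 1 (3.97 CPM, exact 95% Poisson interval 1.904 to 7.30 CPM) and 0 in library 2, where 3 counts would correspond to 2.59 CPM. Reads made by PCR without molecular identifiers are not independent molecules, so intervals and limits cover counting error only.

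RNASEH2A averaged 20.7 ± 5.55 CPM in stretch (SD, n = 4) and 7.62 ± 9.97 CPM in doxorubicin (SD, n = 3), with a log2 fold change of 1.23 (SE 0.70) and adjusted p = 0.310 by edgeR. The value turned on doxorubicin library 3: it was 0.14 (adjusted p = 0.871 by edgeR) with that library alone, and 3.05 (adjusted p = 0.00404 by edgeR) without it. THSD8, on the same strand, shares 30.8% of the exonic bases of RNASEH2A in GENCODE release 29. THSD8 is not analysed here, and whether its reads were counted with those of RNASEH2A was not tested. On log2 CPM, the SD of RNASEH2A between doxorubicin libraries was the largest of the 6 members, above the 0.993 of DNASE2, the next, where the median of all genes tested was 0.719. Between stretch libraries its SD was 0.35, beside a median of 0.297.

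RNASEH2B (chromosome 13, 50909678 to 51024120, plus strand) stood at 15.2, 19.2, 16.9 and 22.6 CPM in stretch libraries 4, 5, 6 and 7, and at 10.7, 3.46 and 10.96 CPM in doxorubicin libraries 1, 2 and 3. Every stretch library lay above every doxorubicin library, and doxorubicin library 2, with 4 counts, was the lowest. The averages were 18.5 ± 3.19 CPM in stretch (SD, n = 4) and 8.38 ± 4.26 CPM in doxorubicin (SD, n = 3). The log2 fold change was 1.05 (SE 0.39), with an unadjusted p of 0.0219 and adjusted p = 0.147 by edgeR, so the difference did not pass. It was 0.77 with doxorubicin library 3 alone (adjusted p = 0.312 by edgeR) and 1.28 without it (adjusted p = 0.0388 by edgeR), so RNASEH2B varied less with the choice of doxorubicin libraries than RNASEH2A. RNASEH2B-AS1 and GUCY1B2, both on the opposite strand, share 1.07% and 0.08% of the exonic bases of RNASEH2B. GUCY1B2 had a log2 fold change of 0.51 (adjusted p = 0.512 by edgeR).

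RNASEH2C (chromosome 11, 65714005 to 65720947, minus strand) stood at 18.2, 13.1, 11.4 and 12.5 CPM in stretch libraries 4, 5, 6 and 7, and at 13.1, 14.7 and 20.2 CPM in doxorubicin libraries 1, 2 and 3. The ranges overlapped, with stretch library 4 and doxorubicin library 3 the highest of their groups. RNASEH2C averaged 13.8 ± 3.02 CPM in stretch (SD, n = 4) and 16.0 ± 3.74 CPM in doxorubicin (SD, n = 3), a log2 fold change of -0.24 (SE 0.33, adjusted p = 0.687 by edgeR). It was -0.54 with doxorubicin library 3 alone (adjusted p = 0.443 by edgeR) and 0.026 without it (adjusted p = 0.962 by edgeR), so the sign turned with that library. KAT5, a histone acetyltransferase gene on the opposite strand, shares 28.2% of the exonic bases of RNASEH2C. KAT5 had a log2 fold change of 0.47 (adjusted p = 0.429 by edgeR). The part of this overlap in the counts was not tested. Between doxorubicin libraries the SD of RNASEH2C was 0.318 on log2 CPM, the smallest of the 6.

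Taken within each library, the division of reads among the subunit genes does not depend on how libraries are scaled. RNASEH2C took 29.2%, 26.8%, 24.6% and 22.9% of the summed subunit counts in stretch libraries 4, 5, 6 and 7, and 47.1%, 81.0% and 40.4% in doxorubicin libraries 1, 2 and 3. Its share was thus higher in every doxorubicin library, library 3 included. The share of RNASEH2A was 46.4%, 34.0%, 38.9% and 35.6% in the same stretch libraries, and 14.3%, 0% and 37.7% in the doxorubicin libraries, where library 3 again lay within the stretch range. The summed counts behind these shares were 427 to 506 in stretch and 70, 21 and 265 in doxorubicin libraries 1, 2 and 3. In doxorubicin library 1 the RNASEH2A share has a Clopper-Pearson 95% interval of 7.07% to 24.7%, and for 0 of 21 counts in library 2 the same interval reaches 16.1%. Each gene is amplified with its own primers, so a share of counts is not a share of subunits. This division was examined after the levels had been seen, and it was not tested.

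**Figure D2:**
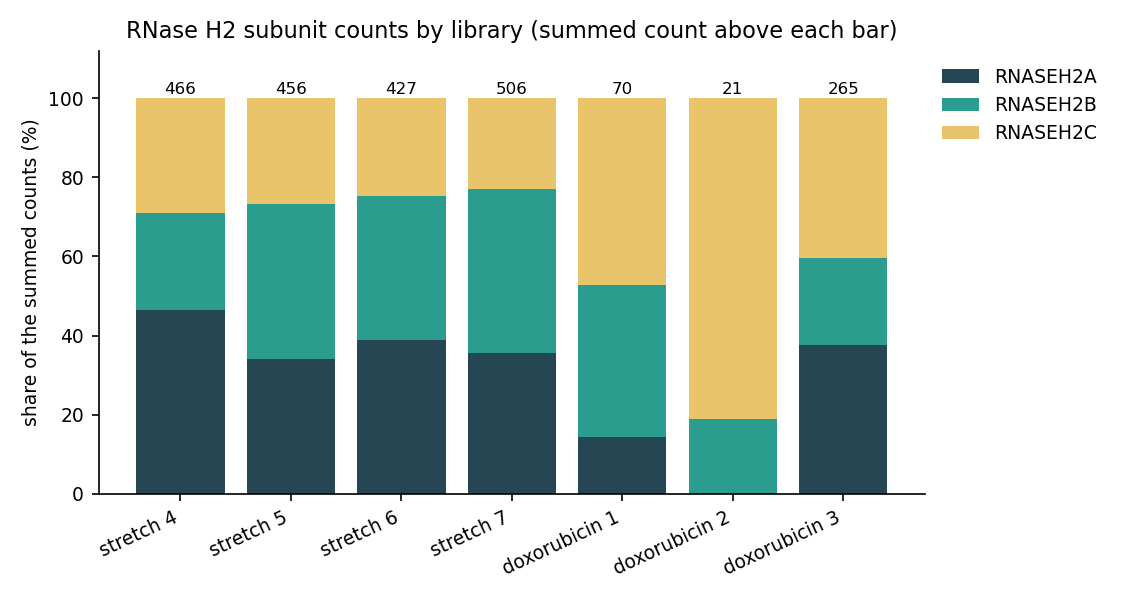
Share of the summed RNase H2 subunit counts (%, y axis) taken by RNASEH2A, RNASEH2B and RNASEH2C in each stretch library and each doxorubicin library, with the summed count above each bar. RNASEH2C takes 22.9% to 29.2% in stretch and 40.4% to 81.0% in doxorubicin, and doxorubicin library 2 has no RNASEH2A count.

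DNASE2 (chromosome 19, 12875211 to 12881468, minus strand) codes the acid endonuclease that breaks down DNA delivered to lysosomes, from engulfed cells and by autophagy. It stood at 48.1, 103, 103 and 87.9 CPM in stretch libraries 4, 5, 6 and 7, and at 86.6, 131 and 34.0 CPM in doxorubicin libraries 1, 2 and 3. The doxorubicin libraries lay on both sides of the stretch range, library 2 above it and library 3 below it. DNASE2 averaged 85.4 ± 25.9 CPM in stretch (SD, n = 4) and 84.0 ± 48.8 CPM in doxorubicin (SD, n = 3), and the log2 fold change was 0.04 (SE 0.45, adjusted p = 0.968 by edgeR). With doxorubicin library 3 alone it was 1.34, and without that library -0.31, so the sign depended on the libraries used. The antisense gene AC020934.2 shares 7.58% of the exonic bases of DNASE2.

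Doxorubicin library 3 was nearest to stretch for SAMHD1, ADAR, RNASEH2A and, by a small margin, RNASEH2B, and farthest from it for DNASE2 and RNASEH2C. As a multiple of the stretch mean, the levels in doxorubicin library 3 were 1.78 for SAMHD1, 1.61 for ADAR, 1.47 for RNASEH2C, 0.914 for RNASEH2A, 0.594 for RNASEH2B and 0.398 for DNASE2. With that library as the only one of its group, edgeR called none of the 6 members (2 at an unadjusted p under 0.05) and 0.802% of all genes. Without it, edgeR called 4 of 6 members, SAMHD1 and ADAR lower in stretch and RNASEH2A and RNASEH2B higher, where it called 32.2% of all genes. DESeq2 called 2 of 6, SAMHD1 and ADAR, and 10% of all genes, and limma-voom with library quality weights called SAMHD1, ADAR, RNASEH2A and RNASEH2B, and 47% of all genes. SAMHD1 alone was called with RLE factors, without a filter on low counts and with EIF4A2 left out, against 2.26%, 1.96% and 2.42% of all genes. No member was called with upper-quartile factors, library totals alone, a mean of at least 10 CPM or limma-voom (3, 3, 3 and 4 of 6 at an unadjusted p under 0.05), against 1.84%, 0.116%, 1.91% and 1.66% of all genes. None was called either when doxorubicin library 1 or 2, or stretch library 4, 5, 6 or 7, was left out (2 or 3 of 6 at an unadjusted p under 0.05), against 0.197%, 2.47%, 0.359%, 0.146%, 0.109% and 0.109% of all genes.

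**Figure D3:**
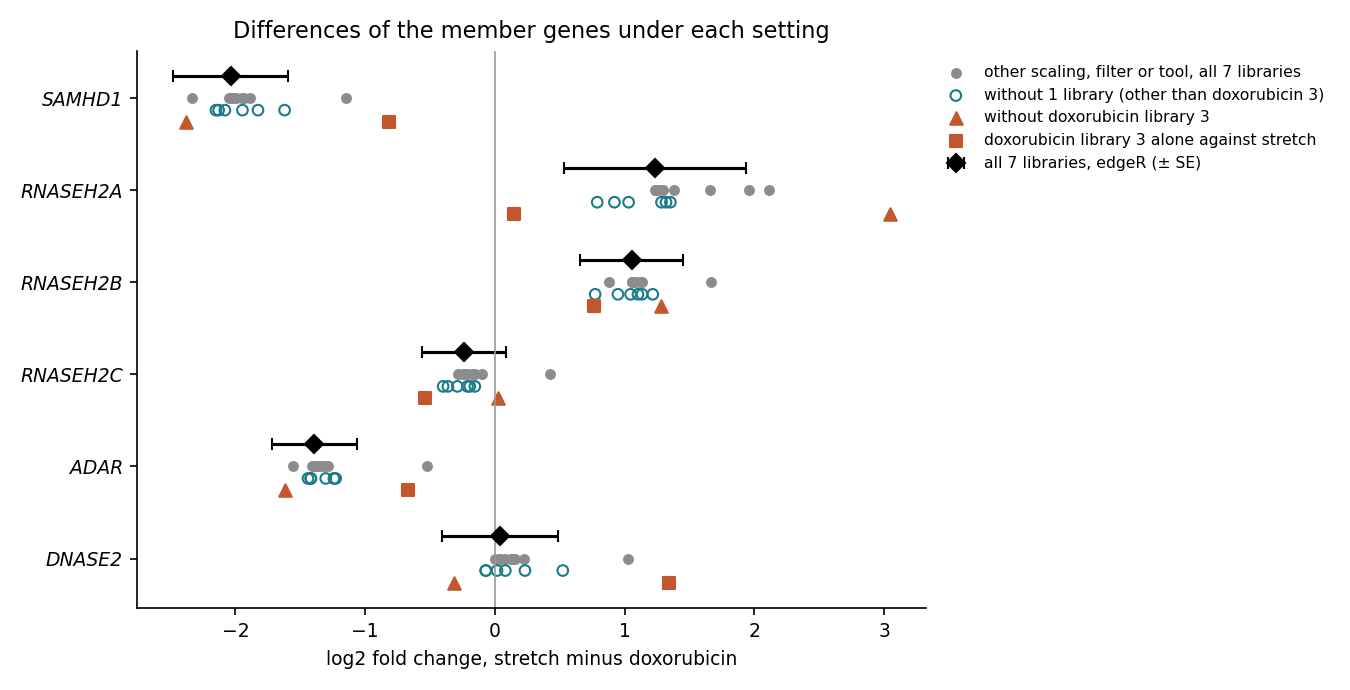
Log2 fold change, stretch minus doxorubicin (x axis), of each of the 6 genes with all 7 libraries (diamonds, ± SE), with other scaling, filters or tools (grey points), without 1 library (open circles and triangles) and with doxorubicin library 3 alone (squares). SAMHD1 and ADAR stay below 0 and RNASEH2A and RNASEH2B above 0 in all of them, RNASEH2A runs from 0.14 to 3.05, and DNASE2 and RNASEH2C change sign.

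Among all genes tested, those nearest to a member in profile were found by the root mean square difference of log2 CPM over the 7 libraries, after each gene was centred on its own mean. For ADAR these were TECPR2, ARHGEF37 and FGD4, at 0.119, 0.121 and 0.144. For SAMHD1 they were PLA1A, CDH6 and MAML2, at 0.186, 0.228 and 0.234. CDH6, a cadherin, stood at 12.7 ± 3.56 CPM in stretch (SD, n = 4) and 43.6 ± 22.03 CPM in doxorubicin (SD, n = 3). None of these 6 neighbours was among the 17 interferon-stimulated genes tested. With 17 such genes among 11230, their absence here says nothing about a link to interferon. The nearest to RNASEH2A were MRFAP1L1, FAM126A and SFPQ, at 0.171, 0.195 and 0.201. SFPQ, an RNA-binding protein of paraspeckles, stood at 108 ± 30.7 CPM in stretch (SD, n = 4) and 43.8 ± 59.3 CPM in doxorubicin (SD, n = 3). RNASEH2B was nearest to TIMM44, SLC25A38 and YWHAB, at 0.131 to 0.138, and RNASEH2C to ZFP28, YWHAZ and GET4, at 0.0553 to 0.0861. For DNASE2 the nearest were EIF3H, PLXNA2 and CTSZ, at 0.0666, 0.104 and 0.118, of which CTSZ codes a lysosomal protease. Libraries that stand apart are shared by all genes, so likeness over 7 libraries is a description only.

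Around the 6 members, other genes of nucleic acid handling were counted from lists. Among the nucleic acid sensors and adaptors, 3 of 10 tested passed, all lower in stretch, with a median log2 fold change of -0.82, beside 0.02 over all genes tested, of which 2.32% passed. IFI16, a DNA sensor, stood at 6.19 ± 1.54 CPM in stretch (SD, n = 4) and 31.97 ± 20.04 CPM in doxorubicin (SD, n = 3), with a log2 fold change of -2.38. IFIH1, the sensor of long double-stranded RNA that ADAR restrains, stood at 1.76 ± 0.58 CPM in stretch (SD, n = 4) and 10.5 ± 6.26 CPM in doxorubicin (SD, n = 3). EIF2AK2, the kinase PKR that halts translation on double-stranded RNA, was 2.58-fold higher after doxorubicin. Its adjusted p of 0.0494 by edgeR was just inside the threshold. By edgeR it was 0.0551 with upper-quartile factors, 0.0622 without a filter and 0.053 with a mean of at least 10 CPM. With RLE factors it was 0.0475 by edgeR, and DESeq2 gave an adjusted p of 0.000588. IFI16 and IFIH1 also passed with doxorubicin library 3 alone, with log2 fold changes of -1.93 and -2.80, and EIF2AK2 did not (log2 fold change -0.997, adjusted p = 0.129 by edgeR). None of the 3 passed when doxorubicin library 1 or any 1 stretch library was left out, while each kept its direction there. MB21D1, which codes the DNA sensor cGAS, lay on the other side, at 16.4 ± 1.49 CPM in stretch (SD, n = 4) and 5.76 ± 4.603 CPM in doxorubicin (SD, n = 3), and did not pass (log2 fold change 1.34, adjusted p = 0.122 by edgeR). It had 2 counts in doxorubicin library 2, below the limit of 3. Without doxorubicin library 3 it was 2.20 and passed (adjusted p = 0.00384 by edgeR), with that library alone it was 0.62 (adjusted p = 0.368 by edgeR), and DESeq2 called it with all libraries (adjusted p = 0.0438). Of the 10 sensors and adaptors tested, 0 passed with library totals alone, against 0.116% of all genes. Their median was then -0.0064 and that of all genes 0.71. With a mean of at least 10 CPM, 1 of the 7 left passed, against 1.91% of all genes.

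Of the interferon-stimulated genes listed, 13 of 17 tested passed, against 2.32% of all genes tested. All 13 were lower in stretch, with log2 fold changes from -6.36 for MX1 to -1.77 for HERC5. With library totals alone 6 of 17 passed, against 0.116% of all genes, and the median was -2.32. With doxorubicin library 3 alone the median was -3.18, beside -2.88 with all libraries. Leaving out library 1 of doxorubicin gave 7 past the adjusted p, against 0.197% of all genes. Leaving out library 4, 5, 6 or 7 of stretch gave 8, 7, 7 and 7. The shares of all genes were then 0.359%, 0.146%, 0.109% and 0.109%. Medians of the list ran from -3.04 to -2.73 in these settings. SAMHD1 and ADAR, at -2.04 and -1.39, and with doxorubicin library 3 alone at -0.81 and -0.67, had smaller differences than that median in both settings.

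In the other lists no member passed the adjusted p in edgeR with all libraries. The list of other DNA nucleases and their partners had 10 tested and a median of -0.42. Its lowest p were those of PLD3, a lysosomal exonuclease, DNASE1L1 and SLX4, a scaffold of nucleases. Their log2 fold changes were -2.33, -1.65 and 1.08, with adjusted p = 0.0657, 0.0779 and 0.180 by edgeR, and SLX4 had 2 counts in doxorubicin library 2. PLD3 and DNASE1L1 were at 0.24 and -0.18 with doxorubicin library 3 alone, and without it at -2.80 and -2.02 (adjusted p = 0.000264 and 0.00141 by edgeR). DESeq2 called both with all libraries (adjusted p = 0.00602 and 0.0197). All 6 genes of the SET complex, with which TREX1 is known to associate, and of cytosolic DNA binding lay on the stretch side. Of all 11230 genes tested, 5748 lay on that side. The 6 genes had a median of 1.04, and 3 of 6 had an unadjusted p under 0.05, against 23.2% of all genes. In doxorubicin library 2, NME1 had 1 count, below the limit of 3, and HMGB2 had 3. APEX1, an endonuclease of base excision repair, was at 75.3 ± 11.9 CPM in stretch (SD, n = 4) and 17.7 ± 16.8 CPM in doxorubicin (SD, n = 3), with a log2 fold change of 1.998 and adjusted p = 0.0682 by edgeR. It was 1.04 with doxorubicin library 3 alone (adjusted p = 0.147 by edgeR) and 3.14 without it (adjusted p = 0.000403 by edgeR), and DESeq2 called it with all libraries (adjusted p = 0.00483). BANF1, which coats cytosolic DNA and keeps cGAS from it, had 1.30 and ANP32A 0.72, and neither passed with all libraries. BANF1 was at 0.47 with doxorubicin library 3 alone and at 2.25 without it (adjusted p = 0.00239 by edgeR). The median of the 6 genes was 0.50 with library 3 alone and 1.71 without it.

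Genes of RNA-DNA hybrids and ribonucleotides in DNA, the substrates of RNase H2, had a median of 0.46 over 7 tested, with TOP1, RNASEH1 and PCNA the lowest in p. RNASEH1, which cleaves longer hybrids, had a log2 fold change of 0.73 (adjusted p = 0.342 by edgeR). Of the deoxynucleotide pool, on which SAMHD1 acts, 16 were tested, with a median of 0.20. NT5M and NT5C3A, both nucleotidases, and RRM2B, the ribonucleotide reductase subunit induced by p53, had log2 fold changes of -1.42, 0.87 and -0.75. Of the other RNA editors and deaminases (8 tested, median 0.14), APOBEC3B, APOBEC3C and APOBEC3A had the lowest p. APOBEC3B had 35, 14, 11 and 28 counts in stretch libraries 4, 5, 6 and 7, and 1, 1 and 5 in doxorubicin libraries 1, 2 and 3. APOBEC3A had 27, 24, 18 and 17 counts in the same stretch libraries, and 2, 0 and 17 in the doxorubicin libraries. In doxorubicin libraries 1 and 2 both genes were thus below the limit of 3 counts, and no fold is given. APOBEC3C, with 28 to 140 counts in doxorubicin, had a log2 fold change of 0.46. The genes of self-RNA decay (19 tested, median 0.22) were led by RNASET2 at -1.11, EXOSC1 at -0.81 and DIS3 at 0.94. Over these 6 lists with no call, 10, 7, 16, 8, 19 and 6 genes were tested, and 4, 1, 3, 1, 2 and 3 had an unadjusted p under 0.05, in the order DNA nucleases, hybrids, deoxynucleotides, editors, RNA decay and SET complex, against 23.2% of all genes. Without doxorubicin library 3, the counts past the adjusted p were 4, 2, 7, 0, 6 and 3 in that order, where 32.2% of all genes passed. With all libraries DESeq2 called 2, 0, 1, 0, 0 and 1 (10% of all genes), limma-voom called none (1.66% of all genes), and limma-voom with library quality weights called 4, 4, 9, 3, 10 and 5 (47% of all genes). The median was 0.13 for the DNA nucleases without doxorubicin library 3, and -0.15 for the hybrids and -0.09 for the deoxynucleotides with that library alone, so the sign of these 3 medians depended on it.

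**Figure D4:**
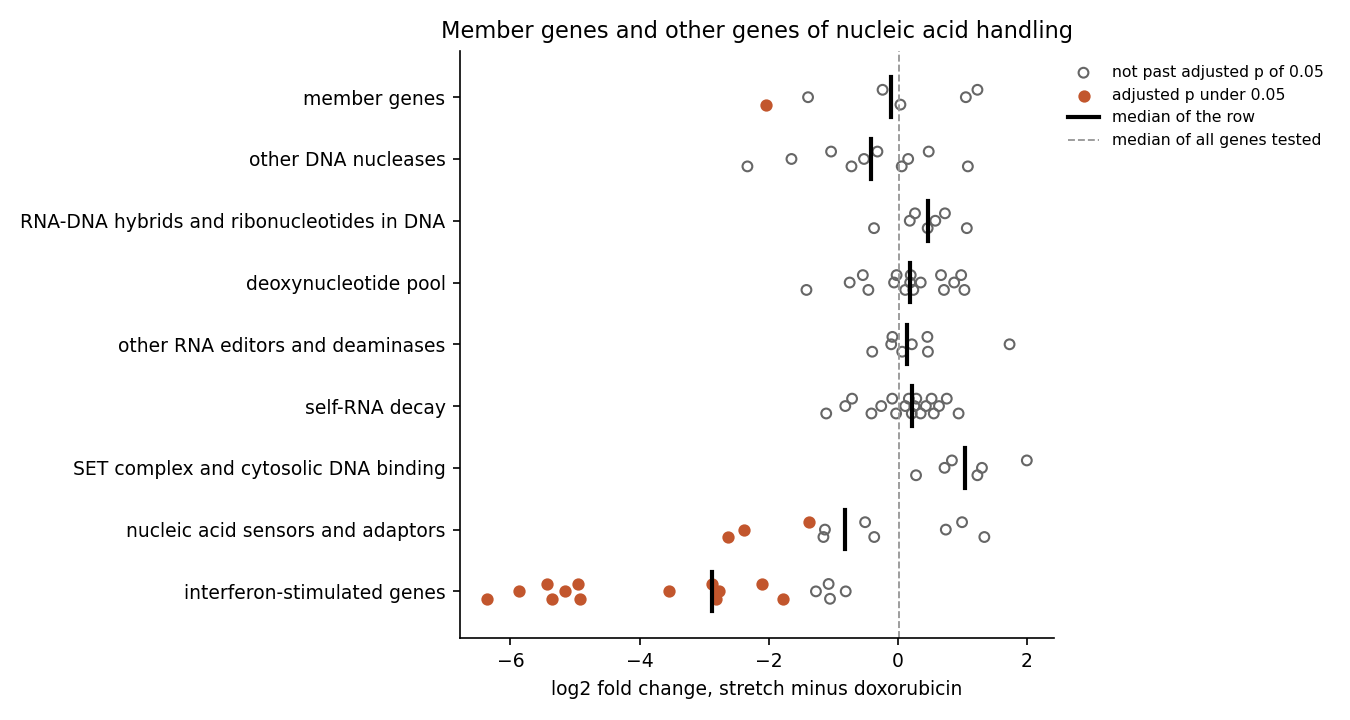
Log2 fold change, stretch minus doxorubicin (x axis), of the 6 member genes and of the tested genes of 8 lists (rows), with filled points past an adjusted p of 0.05, a black bar at each row's median and a dashed line at the median of all genes tested. Filled points appear in the rows of the members (SAMHD1), the sensors (3) and the interferon-stimulated genes (13), all on the doxorubicin side.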

How the data were processed

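Expression was measured in 7 A549 libraries, 4 after stretch and 3 after doxorubicin, grouped by sample title. Replicate numbers are not shared between groups, so nothing was paired. Per the labels' protocols, RNA was extracted with Trizol and an Ion AmpliSeq transcriptome kit was used, in which each gene is amplified over a short stretch with primers of its own. The authors deposited estimated counts per gene as whole numbers without normalisation. Tools named in the submitters' processing notes are fastp 0.20.1 and Salmon 1.9, with GRCh38, and the annotation release is not given in the sources used here. Of 14647 rows, those of the 64 symbols in several rows were summed and Metazoa_SRP (at most 0.00861% of a library) was left out, which gave 14535 genes.

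Counts were tested with edgeR 4.0.16 in R 4.3.3: filterByExpr, TMM factors (0.443 to 1.33), glmQLFit with robust estimation and glmQLFTest. Fold changes are stretch over doxorubicin, p was adjusted by Benjamini-Hochberg over the 11230 genes tested, and the threshold was 0.05. SE was obtained from the F statistic as the size of the log2 fold change over its square root. Log2 CPM used a prior count of 2. The procedure was also run on simulated counts, in which both groups were given the same spread. In these data the median SD on log2 CPM was 0.297 in stretch and 0.719 in doxorubicin. The simulated run therefore does not check the calls under such unequal spread. Alternatives changed the scaling (RLE, upper quartile, totals alone), the filter (none, or at least 10 CPM on average), the tool (DESeq2 1.42.0, limma-voom in limma 3.58.1, also with library quality weights) or the data (EIF4A2 left out, doxorubicin library 3 as the only one of its group, each library left out).

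The members, lists and alternatives were chosen with earlier results of these data known. Named genes are the members, for each list the genes past the threshold or otherwise the 3 with the lowest adjusted p, the 3 genes nearest to each member in profile, and genes whose exons overlap a member's. Of the interferon-stimulated genes only the extremes of those past the threshold are given values. The upstream sequence of ISG15, the gene with the lowest p of all, was chosen for contrast after its values were seen. MB21D1 was named after its value was seen, and CTSZ, SFPQ and CDH6 were singled out likewise. The motifs were chosen after the levels were known.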

Additional observations from a re-analysis of the deposited data

How the results depend on the processing

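The direction held under all 17 alternatives for SAMHD1, ADAR, RNASEH2A and RNASEH2B. SAMHD1 no longer passed with upper-quartile factors (log2 fold change -1.95, adjusted p = 0.0505), library totals alone (-1.15), a mean of at least 10 CPM (-1.995), limma-voom (-1.89) or doxorubicin library 3 alone (-0.81), and leaving out each library gave -2.38 to -1.62. ADAR passed with DESeq2 (-1.37) and with library quality weights (-1.55), and leaving out each library gave -1.62 to -1.23. With quality weights RNASEH2A (2.11) and RNASEH2B (0.88) also passed, and leaving out each library gave 0.79 to 3.05 and 0.77 to 1.28. DNASE2 changed sign with RLE factors (-0.00071) and when 1 library was left out (-0.31 to 0.52), and RNASEH2C with library totals alone (0.42) and when 1 library was left out (-0.40 to 0.026). Library totals alone moved the median of all genes to 0.71, so that RNASEH2C still lay below it. The cause of these changes was not tested.

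With upper-quartile factors, library totals alone, a mean of at least 10 CPM, limma-voom or doxorubicin library 3 alone, 0 of 6 members passed (3, 3, 3, 4 and 2 at an unadjusted p under 0.05). DESeq2 called 2 and quality weights 4, and leaving out each library gave 0 to 4. Over all genes the count was 261, and 13 with library totals alone, 143 with a mean of at least 10 CPM, 1315 with DESeq2, 5276 with quality weights, 99 with doxorubicin library 3 alone, and 12 to 3736 when 1 library was left out. Without doxorubicin library 3 the count was 3736, without library 1 it was 23, and without stretch library 4, 5, 6 or 7 it was 40, 16, 12 and 12. Where 1 doxorubicin library stands alone, it is assumed to vary like the stretch libraries. RNASEH2A and RNASEH2B in doxorubicin libraries 1 and 2 rest on 0 to 27 counts, so their counting error is wide there. For RNASEH2A the exact 95% Poisson intervals reach 7.3 and 3.19 CPM, beside a lowest stretch level of 16.6 CPM. For RNASEH2B they reach 15.6 and 8.86 CPM, beside a lowest stretch level of 15.2 CPM. These intervals cover counting error only, and the part of depth was not tested.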
